A study of Mus musculus with 60 samples.

Results

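The comparison described here is that of mice left to recover for 6 h after sleep deprivation (RS6) with undisturbed controls of the same time of day (CC11). Its members were chosen by their labels: 7 RS6 arrays and 7 CC11 arrays, out of 60 arrays in the series. RS6 mice were kept awake for 5 h from lights on by brushing with a soft brush, then left alone for 6 h and collected at ZT11, where ZT is zeitgeber time in hours after lights on. CC11 mice stayed undisturbed in their cages and were collected at ZT11 as well. All mice were C57BL/6J males, of a common inbred line, aged 2 months, housed singly under 12 h of light and 12 h of dark, and accustomed to handling for 6 days. For the stages set beside RS6, SD mice (n = 7) were kept awake for 6 h and collected at ZT6, RS2 mice (n = 4) had 6 h of deprivation and 2 h of recovery, and RS3 mice (n = 7) had 5 h of deprivation and 3 h of recovery, with controls CC6 (n = 7) at ZT6 and CC8 (n = 7) at ZT8. RNA from the left cortex was measured on the Affymetrix Mouse Gene 2.1 ST array, with 1 array for each mouse. Sleep itself was not recorded in these mice, so RS6 stands for an opportunity to sleep.

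Sleep need builds up during waking and is discharged during sleep, and cortical neurons change the expression of many genes while an animal is kept awake. Some of these are immediate early genes, which neuronal activity switches on and off again quickly. Others encode secreted peptides, synaptic proteins and the chaperones of the endoplasmic reticulum (ER), whose messages can outlast the stimulus. Clock genes respond to time of day and to wakefulness alike, which is why each group needs controls of its own time of day. The comparison of RS6 with CC11 asks what is still different, or newly different, in the cortex after a long recovery.

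Each value is the log2 intensity of a probeset (the probes that share a target transcript) as given by RMA, and single values below are these RMA values. Of 41345 probesets, 32819 lay over a log2 value of 4 in more than 50% of 59 arrays and were tested. That threshold was passed by 79.0% to 79.5% of all probesets on the RS6 arrays and by 78.8% to 79.9% on the CC11 arrays. Log2 fold changes (RS6 over CC11, ± SE) and FDR values (Benjamini-Hochberg adjusted p) come from limma with the 9 groups of the series and 6 factors of Removal of Unwanted Variation (RUV) as terms, the number of factors the study used. The number of mice limits the precision: the median SE was 0.0874 on the log2 scale. RS6 replicate 1 stood apart from the other RS6 arrays. It lay at −42.7 on the first principal component of the RMA values, where the other 6 lay between 7.44 and 16.1, and its small nucleolar RNA probesets deviated by a median of 0.66 from the RS6 mean. As a check of the label, 10 markers of excitatory cortical neurons were measured, at a mean level per mouse of 9.33 to 9.42 in RS6 and 9.17 to 9.38 in CC11. Array levels of different markers are not compared with each other, so this shows only that their signal was present. Markers of the striatum, which lies beneath the cortex, were measured too, at a mean of 7.76 to 9.37 in RS6 mice and 8.41 to 9.09 in CC11 mice. All 9 measured striatum markers had a log2 fold change below 0, with a median of −0.43, although none passed the test. In bulk tissue fewer cells of a type and less RNA per cell cannot be told apart.

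After 6 h of recovery, 49 probesets differed from CC11 at an FDR under 0.01, 0.149% of those tested. Of these, 39 were higher (0.119%) and 10 were lower (0.0305%) in RS6. The sizes were small, from 1.1-fold to 1.47-fold. The higher ones included messages for the peptides Adcyap1 and Crh, for the synaptic organizers Nptx2, Cbln4, Cbln2, Nrn1 and Slitrk2, for the serotonin receptor Htr2a, for potassium channel subunits and for an ER chaperone, and the lower ones included Per2, Hrh3 and Efnb2. At an FDR under 0.05, 222 probesets were higher (0.676%) and 111 lower (0.338%). Without the RUV factors no probeset passed an FDR of 0.01, although 3477 had an unadjusted p under 0.05, against 4640 with the factors. In that fit all 49 had the same direction, 6 of them (2 of Neat1, Gcnt4, Tmem230, Mrs2 and Tmem59) had fold changes that the factors made over 1.5 times larger, and Tsnax, Sertm1 and Crh passed an FDR of 0.05. Without RS6 replicate 1, 41 probesets passed, 38 of them among the 49. The count depended more on other mice: it was 15, 12 and 22 without RS6 replicates 2, 3 and 7, and 31, 105, 25 and 19 without CC11 replicates 1, 3, 6 and 7. All 49 kept their direction whichever mouse was left out. Htr2a, Adcyap1, Lhfp, Cbln4, Tsnax and 1 probeset of Neat1 also passed an FDR of 0.01 each time. Since the 49 were picked on these same mice, the kept direction adds no test.

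**Figure D1:**
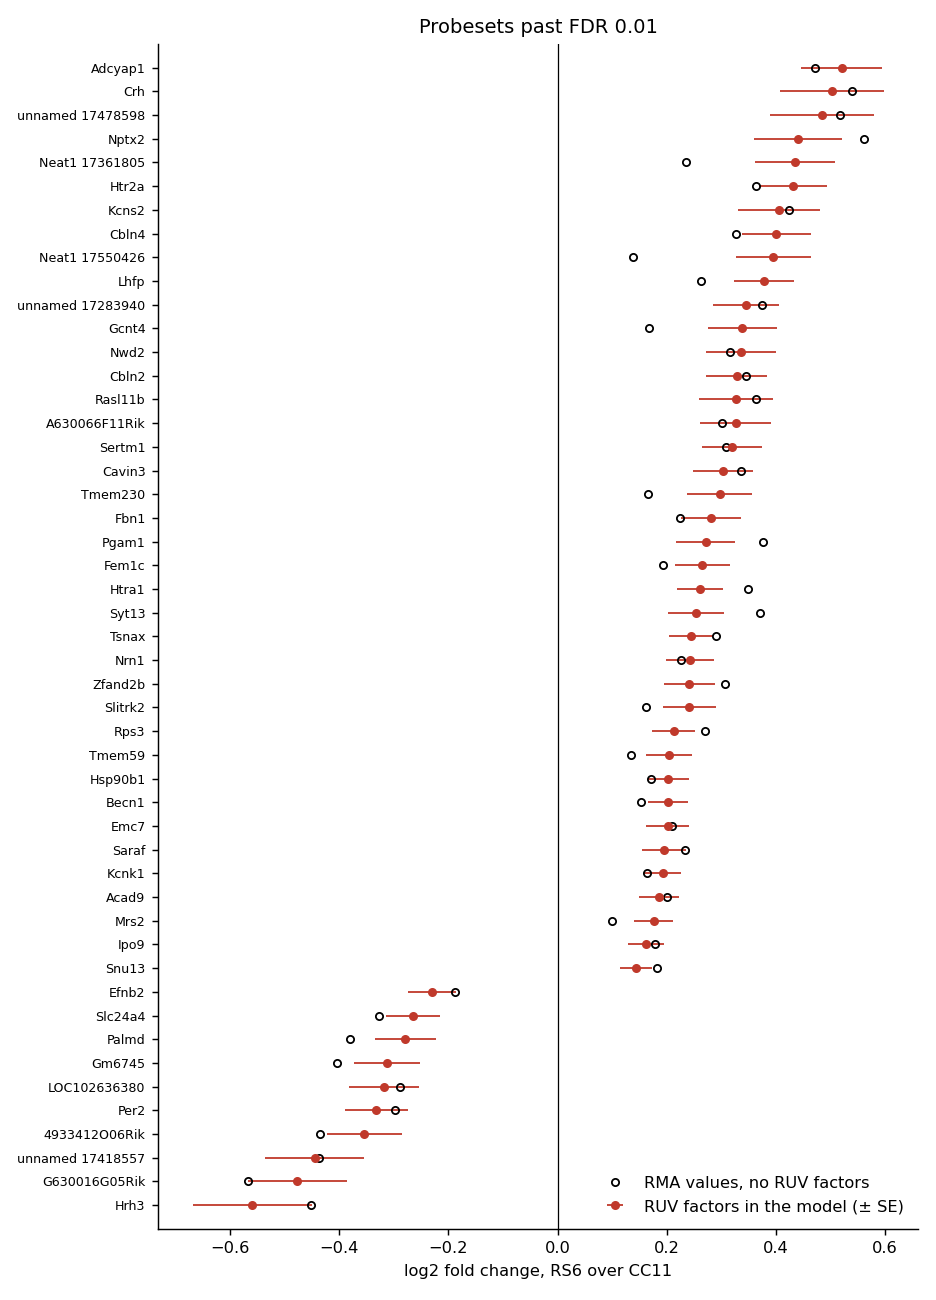
Log2 fold change of RS6 over CC11 (x axis) for each of the 49 probesets past an FDR of 0.01 (rows), with RUV factors in the model (filled, ± SE) and without them (open). The open circles lie on the same side of 0 as the filled ones in all 49 rows.

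The RMA values show how the mice lay. In 10 of the 39 higher probesets, all 7 RS6 mice were above all 7 CC11 mice, an arrangement found in 0.216% of all tested probesets. In 3 of the 10 lower ones all RS6 mice were below all CC11 mice, as in 0.165% of all probesets. Since the 49 were picked on the same mice, these counts describe them and add no test. RS6 replicate 1 was above the highest CC11 mouse in 24 of the 39 higher probesets, and the other RS6 mice were above it in 29 to 36.

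Peptides were among the strongest increases. Adcyap1 encodes PACAP, a peptide that raises cyclic AMP in neurons and glia, and lies on chromosome 17 (GRCm38.p6 chr17:93198245-93206541). Its lowest, median and highest values were 7.43, 7.60 and 8.08 in RS6 mice and 7.08, 7.24 and 7.37 in CC11 mice. The groups did not overlap, and the increase was 0.52 ± 0.07 (1.43-fold, FDR = 0.000128). Crh, which encodes corticotropin-releasing hormone and is expressed in some cortical interneurons (chr3:19693401-19695396), had values of 6.27, 6.37 and 6.73 in RS6 mice against 5.44, 5.98 and 6.27 in CC11 mice. The groups touched at a single value, with 6 RS6 mice above every CC11 mouse. Crh rose by 0.50 ± 0.10 (1.42-fold, FDR = 0.00479), and it no longer passed 0.01 without RS6 replicate 2 (FDR = 0.0191), RS6 replicate 7 (0.0143) or CC11 replicate 2 (0.0102). Of 23 neuropeptide genes, these 2 rose at an FDR under 0.01 and 5 at 0.05, and none fell at either threshold. Of all tested probesets 0.119% rose at 0.01, and of all named genes 1.03% rose at 0.05. The neuropeptide list was written with earlier results of these data known, so its counts describe it and add no test. In the list 16 of 23 lay above 0, from −0.38 to 0.52. The median log2 fold change was 0.12, beside 0.01 over all named genes. The other 3 past 0.05 were Cck (0.31), a peptide of cortical neurons, Vgf (0.29), a precursor induced by neurotrophins, and Vip (0.17). Among 24 neuropeptide receptor and binding protein genes, Crhbp, whose product binds and sequesters Crh, rose by 0.25 (FDR = 0.0387) and Npy2r fell by 0.53 (FDR = 0.0273).

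Several genes of synapse formation were called. Of 27 measured synaptic organizers and adhesion proteins, 5 rose and 1 fell at an FDR under 0.01, with a median over the list of 0.07. Of all tested probesets 0.119% rose and 0.0305% fell at that threshold. The list was written with earlier results of these data known, so its count describes it and adds no test. Nptx2 encodes neuronal pentraxin 2, a secreted protein that clusters AMPA receptors (chr5:144545887-144557478). Its lowest, median and highest values were 7.49, 7.87 and 8.05 in RS6 mice, against 7.02, 7.27 and 7.39 in CC11 mice. The groups were fully apart, with an increase of 0.44 ± 0.08 (FDR = 0.00333). Cbln4 and Cbln2 encode cerebellins, secreted proteins that bridge presynaptic neurexins and postsynaptic receptors. Cbln4 lay at 6.88, 7.26 and 7.48 in RS6 mice and at 6.76, 6.85 and 7.05 in CC11 mice. RS6 replicate 1 and 1 further RS6 mouse lay within the CC11 range and the other 5 above it, for an increase of 0.40 ± 0.06 (FDR = 0.000531). Cbln2 lay at 8.16, 8.44 and 8.57 in RS6 mice and 7.97, 8.04 and 8.24 in CC11 mice, with 6 RS6 mice above every control and an increase of 0.33 ± 0.06 (FDR = 0.00166).

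Nrn1, which encodes neuritin, a membrane-anchored protein that promotes the growth of neurites and synapses, lay at 11.31, 11.43 and 11.56 in RS6 mice against 11.07, 11.25 and 11.31 in CC11 mice. All RS6 mice were above all controls, by 0.24 ± 0.04 (FDR = 0.00304). Slitrk2, a postsynaptic adhesion protein, rose by 0.24 ± 0.05 (FDR = 0.00804). Efnb2 encodes ephrin-B2, a membrane ligand of Eph receptors, and was the member that fell. It lay at 8.66, 8.78 and 9.04 in RS6 mice and 8.89, 8.99 and 9.24 in CC11 mice. The ranges overlapped, with 5 RS6 mice below every control, and the fold change was −0.23 ± 0.04 (FDR = 0.00554).

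**Figure D2:**
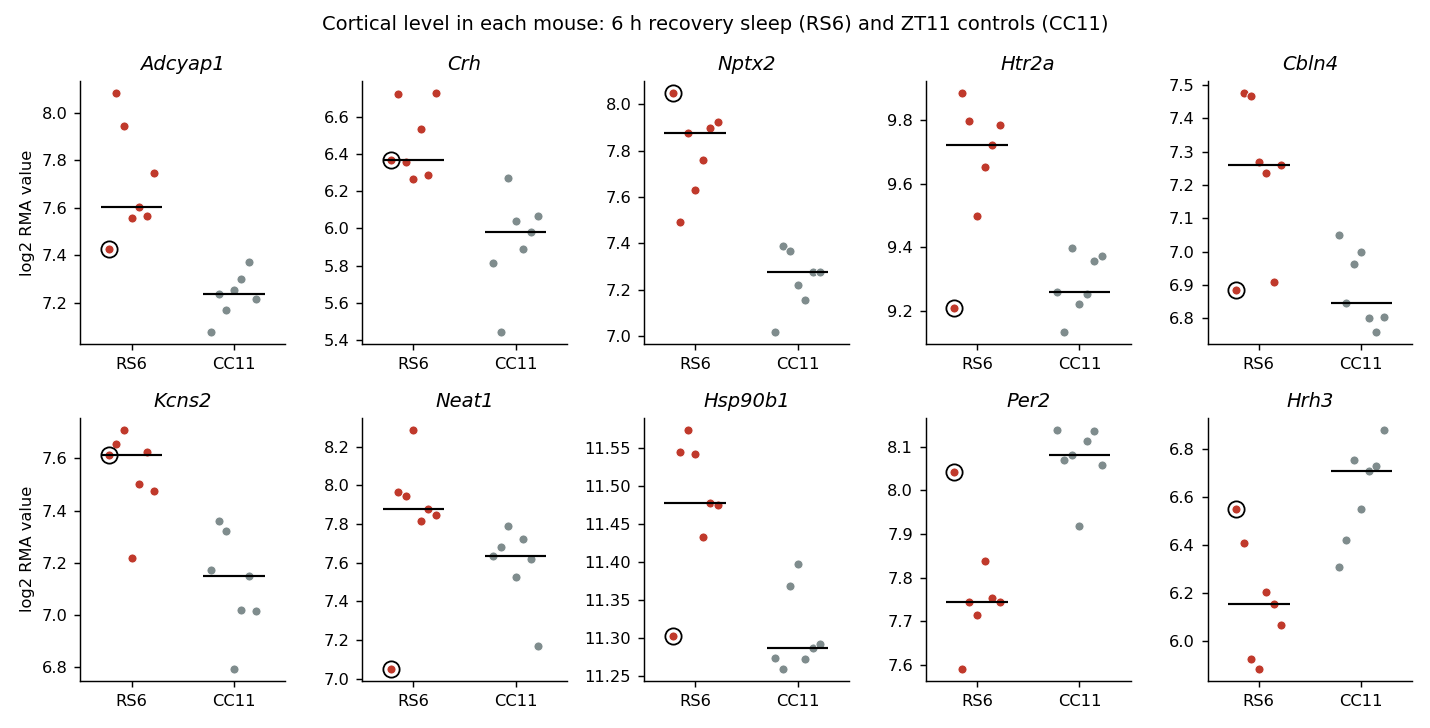
RMA log2 value (y axis) of 10 genes in each RS6 mouse (red, left) and each CC11 mouse (grey, right), with the group median as a bar and RS6 replicate 1 ringed. Adcyap1 and Nptx2 are fully apart, whereas in other panels, among them Htr2a, Cbln4, Neat1, Hsp90b1 and Per2, the ringed mouse lies among or below the controls.

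Receptors and channels changed in both directions. Htr2a encodes the 5-HT2A serotonin receptor of cortical pyramidal cells (chr14:74640874-74706859) and lay at 9.21, 9.72 and 9.88 in RS6 mice and at 9.13, 9.26 and 9.40 in CC11 mice. RS6 replicate 1 was the lowest RS6 mouse and lay within the control range, and the other 6 lay above it. The increase was 0.43 ± 0.06 (1.35-fold, FDR = 0.000128). Of 28 receptors for monoamines, histamine and acetylcholine, each counted by its probeset with the highest mean, Htr2a was the member called and the median was 0.00. Hrh3 counts there by a probeset that did not pass, while its other one did. Of 43 potassium channel genes 2 rose and none fell at either threshold. Over all tested probesets, 0.119% rose and 0.0305% fell at 0.01. Both lists were written with earlier results of these data known, so their counts add no test. Kcns2, a silent subunit that modifies Kv2 channels, lay at 7.22, 7.61 and 7.71 in RS6 mice and 6.79, 7.15 and 7.36 in CC11 mice. All but 1 RS6 mouse were above every control (0.41 ± 0.07, FDR = 0.00346). Kcnk1, a two-pore leak channel subunit, rose by 0.19 ± 0.03 (FDR = 0.00202). Slc24a4, a potassium-dependent exchanger of sodium for calcium, lay at 9.52, 9.58 and 9.69 in RS6 mice against 9.67, 9.95 and 10.09 in CC11 mice. All but 1 RS6 mouse were below every control, at −0.26 ± 0.05 (FDR = 0.00367).

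Hrh3 encodes the histamine H3 receptor, which restrains the release of histamine and other transmitters, and is strongly expressed in the striatum as well as the cortex. Its probeset 17380706 lay at 5.88, 6.15 and 6.55 in RS6 mice and at 6.31, 6.71 and 6.88 in CC11 mice. The groups overlapped, with 5 RS6 mice below every control, and the fold change of −0.56 ± 0.11 was the largest of the 49 (FDR = 0.00554). Its other probeset 17395499 had values of 9.48, 9.61 and 9.89 in RS6 mice against 9.58, 9.74 and 9.85 in CC11 mice and did not pass (−0.16 ± 0.05, FDR = 0.142). Because the striatum markers had fold changes below 0 as well, their mean level per mouse was added to the model as a covariate. Then 16 probesets passed an FDR of 0.01, among them 15 of the 49, which were 14 of the higher and 1 of the lower ones, Per2. Hrh3 had a fold change of −0.48 and an FDR of 0.028 in that fit, Nptx2 (0.41, against 0.44 without the covariate) and Crh (0.49, against 0.50) had an FDR of 0.0154, and all 49 passed 0.05.

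Proteins that act in the ER and in protein turnover were represented by single members. Hsp90b1, which encodes GRP94, a chaperone of the ER lumen (chr10:86690841-86705444), lay at 11.30, 11.48 and 11.57 in RS6 mice and 11.26, 11.29 and 11.40 in CC11 mice. RS6 replicate 1 lay among the controls and the other 6 were above them all, for an increase of 0.20 ± 0.04 (FDR = 0.00358). Calr, which encodes calreticulin, a calcium-binding chaperone, lay at 11.15, 11.25 and 11.54 in RS6 mice against 10.99, 11.03 and 11.15 in CC11 mice. These groups did not overlap, and Calr passed the looser threshold (0.19 ± 0.04, FDR = 0.024). Hspa5, which encodes the chaperone BiP, lay at 9.30, 9.38 and 9.46 in RS6 mice and 9.21, 9.29 and 9.44 in CC11 mice, overlapping and not passing (0.07 ± 0.06, FDR = 0.66). In all, 1 of 19 ER chaperones and foldases rose at 0.01 and 2 at 0.05, with a median of 0.02. The shares were 0.119% of all tested probesets at 0.01 and 1.03% of all named genes at 0.05. This list too was written with earlier results of these data known. None of 12 cytosolic heat shock genes passed.

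Chaperone promoters commonly carry the ER stress response element, through which the unfolded protein response acts, so the stretches upstream of these genes are shown for the chaperone that passed, the one that passed the looser threshold and the one that did not. They end at the base before the transcription start, are taken from RefSeq, and have the fixed letters of the element in capitals.
Hsp90b1 (GRCm38.p6 chr10:86705445-86705664, minus strand): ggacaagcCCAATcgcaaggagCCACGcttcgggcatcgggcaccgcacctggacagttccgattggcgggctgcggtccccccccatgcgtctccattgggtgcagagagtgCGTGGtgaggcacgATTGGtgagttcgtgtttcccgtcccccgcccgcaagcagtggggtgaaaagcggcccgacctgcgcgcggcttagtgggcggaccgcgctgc
Calr (GRCm38.p6 chr8:84846932-84847101, minus strand): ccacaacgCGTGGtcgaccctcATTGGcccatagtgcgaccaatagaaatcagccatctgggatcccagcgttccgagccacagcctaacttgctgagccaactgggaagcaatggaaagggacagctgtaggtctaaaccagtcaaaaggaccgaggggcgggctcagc
Hspa5 (GRCm38.p6 chr2:34771970-34772089, plus strand): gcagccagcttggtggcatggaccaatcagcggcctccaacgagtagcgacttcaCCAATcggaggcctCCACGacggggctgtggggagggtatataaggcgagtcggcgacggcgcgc

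The element was searched on both strands as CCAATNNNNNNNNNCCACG in the 250 bases before each start. It occurred 2 times upstream of Hsp90b1 and 1 time each upstream of Calr and Hspa5, and no copy overlapped another motif searched. Of the 16 ER chaperone and foldase genes with a RefSeq promoter 8 held it (50%), against 35 of 27025 genes overall (0.13%). The 8 with the element had a median log2 fold change of 0.02, from −0.04 to 0.20, and the 8 without it had a median of 0.03, from −0.09 to 0.07. Hsp90b1 and Calr, the 2 that passed 0.05, both held the element, as did Canx, Creld2, Dnajc3, Ero1b, Hspa5 and Pdia6, which did not pass. Of the 36 genes with a higher probeset 22 had a promoter. Among these the cAMP response element TGACGTCA occurred in Zfand2b and Slitrk2 (9.09%, against 1.77% of all genes), the AP-1 site TGANTCA in Gcnt4 and Nwd2 (9.09%, against 7.82%), the E-box CACGTG in none (6.86% of all genes), and the same was true of the heat shock element GAANNTTC (7.73%) and the D-box TTATGTAA (0.977%). A match is a string of letters and says nothing of binding.

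Further members touched protein turnover, RNA and metabolism. Becn1, a core factor of autophagy initiation, lay at 8.85, 8.91 and 8.997 in RS6 mice and 8.61, 8.76 and 8.86 in CC11 mice, with 6 RS6 mice above every control (0.20 ± 0.04, FDR = 0.00301). It was 1 of 32 autophagy genes to rise at 0.01, joined at 0.05 by Gabarapl2 (0.22), and 25 of the 32 (78.1%) had a fold change above 0, beside 55.3% of all named genes, with a median of 0.04. Emc7, a subunit of the ER membrane complex and the only 1 of 23 genes of the unfolded protein response and ER-associated degradation to pass, and Zfand2b, an adaptor of the proteasome at the ER, rose by 0.20 and 0.24. Fem1c, a substrate receptor of a ubiquitin ligase, rose by 0.27, and Saraf, an inhibitor of calcium entry after store emptying, rose by 0.19. Saraf and Slc24a4 were the members called among 18 genes of calcium stores and calcium exchange. Rps3 (0.21) was the only 1 of 58 cytosolic ribosomal protein genes to pass, and 41 of them (70.7%) lay above 0. Ipo9 (0.16) was the only 1 of 17 nuclear import receptors to pass. At 0.01, 0.119% of all tested probesets rose and 0.0305% fell, and at 0.05, 1.03% of all named genes rose. The lists of this paragraph were written with earlier results of these data known, so their counts and signs add no test. Tsnax, which encodes a partner of the RNA-binding protein translin, lay at 9.89, 10.02 and 10.12 in RS6 mice and at 9.52, 9.70 and 9.88 in CC11 mice. These ranges were apart, and Tsnax had the lowest FDR of the 49 without RUV factors, 0.0139 (0.24 ± 0.04, FDR = 0.00129 with them). Pgam1, a glycolytic enzyme, rose by 0.27, the mitochondrial genes Acad9 and Mrs2 rose by 0.19 and 0.18 (Mrs2 by 0.10 without RUV factors), and the ribonucleoprotein gene Snu13 rose by 0.14. In Emc7, Saraf, Snu13, Pgam1 and Nwd2 a second probeset did not pass (−0.03 to 0.19).

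Among the larger increases with less settled roles, Lhfp lay at 7.49, 8.03 and 8.13 in RS6 mice and at 7.39, 7.73 and 7.85 in CC11 mice. RS6 replicate 1 was far below the other RS6 mice and within the control range, and the increase was 0.38 ± 0.05 (FDR = 0.000128). Sertm1 had values of 7.14, 7.37 and 7.47 in RS6 mice against 6.90, 7.03 and 7.17 in CC11 mice, nearly apart (0.32 ± 0.05, FDR = 0.0019). Rasl11b, a small GTPase-like protein, lay at 9.31, 9.56 and 9.62 in RS6 mice and 8.98, 9.16 and 9.28 in CC11 mice, fully apart (0.33 ± 0.07, FDR = 0.00916). Cavin3, a component of caveolae, was also apart, at 7.34, 7.45 and 7.60 in RS6 mice against 6.92, 7.10 and 7.34 in CC11 mice (0.30 ± 0.05, FDR = 0.00304). Nwd2 lay at 8.93, 9.10 and 9.31 in RS6 mice and at 8.61, 8.77 and 8.97 in CC11 mice, with 5 RS6 mice above every control (0.34 ± 0.06, FDR = 0.00538). Gcnt4, a glycosyltransferase, overlapped more, at 7.79, 8.57 and 8.95 in RS6 mice and 8.07, 8.42 and 8.55 in CC11 mice (0.34 ± 0.06, FDR = 0.00385), with RS6 replicate 1 below every control. Without RUV factors Gcnt4 had 0.17 (FDR = 0.672). A630066F11Rik had values of 6.46, 6.67 and 6.86 in RS6 mice and 6.14, 6.35 and 6.52 in CC11 mice (0.33 ± 0.06, FDR = 0.00662), with 6 RS6 mice above every control. The remaining named increases were the secreted protease Htra1 (0.26, groups apart), the synaptotagmin Syt13 (0.25), Tmem230 (0.30, or 0.17 without RUV factors), Tmem59 (0.20, or 0.14) and Fbn1 (0.28, a probeset named only in the study's tables), and 2 probesets without a gene name also rose.

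Neat1, a long noncoding RNA that scaffolds nuclear paraspeckles (chr19:5824708-5845480), had 3 probesets. Probeset 17361805 lay at 7.05, 7.88 and 8.29 in RS6 mice and 7.17, 7.63 and 7.79 in CC11 mice. RS6 replicate 1 was the lowest of the 14 mice, the other 6 RS6 mice were above every control, and the increase was 0.44 ± 0.07 (FDR = 0.00138), or 0.24 without RUV factors (FDR = 0.656). Probeset 17550426 rose by 0.40 ± 0.07 (FDR = 0.00202) with ranges that overlapped widely, and by only 0.14 without RUV factors. Probeset 17550428 rose by 0.57 ± 0.13 at the looser threshold (FDR = 0.0196). Of 14 paraspeckle and nuclear retention genes, Sfpq, a paraspeckle protein, fell by 0.20 (FDR = 0.0479), and the median was 0.01. Among all named genes 0.434% fell at an FDR under 0.05.

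In the clock group a few members fell and most did not pass. Per2, a core clock repressor (chr1:91415977-91459351), lay at 7.59, 7.74 and 8.04 in RS6 mice and at 7.92, 8.08 and 8.14 in CC11 mice. RS6 replicate 1 was the only RS6 mouse within the control range, and the fold change was −0.33 ± 0.06 (FDR = 0.00202). The study's tables name the probeset Per2, and the platform annotation pairs it with Per2 and 9830107B12Rik, so signals of these overlapping genes are not told apart. Its mean level was 7.78 ± 0.14 in RS6, and in undisturbed mice 7.50 ± 0.10 in CC6, 7.74 ± 0.17 in CC8 and 8.07 ± 0.08 in CC11 (SD, n = 7 each), so the RS6 mean lay between those of CC8 and CC11. Of 19 clock and clock output genes, Per2 fell at 0.01, where 0.0305% of all tested probesets fell. Tef (−0.22) and Bhlhe40 (−0.24) fell at 0.05, where 0.434% of all named genes fell. The clock list was written with earlier results of these data known, so its counts add no test. None of the 19 rose at either threshold, and 7 had a fold change above 0, up to 0.15, with a list median of −0.06. Dbp had a fold change of −0.27 (FDR = 0.0804), Per1 of −0.22 (FDR = 0.112) and Npas2 of 0.08 (FDR = 0.379).

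Other decreases belonged to no list. Palmd, which encodes palmdelphin, a cytosolic relative of paralemmin, lay at 8.07, 8.32 and 8.64 in RS6 mice and 8.56, 8.73 and 8.85 in CC11 mice, with 6 RS6 mice below every control (−0.28 ± 0.06, FDR = 0.00803). 4933412O06Rik lay at 7.16, 7.52 and 7.67 in RS6 mice and 7.76, 7.95 and 8.03 in CC11 mice, fully apart (−0.35 ± 0.07, FDR = 0.00554). Gm6745 lay at 5.75, 6.39 and 6.54 in RS6 mice against 6.52, 6.68 and 6.91 in CC11 mice (−0.31 ± 0.06, FDR = 0.00554), where 6 RS6 mice were below every control. The probesets G630016G05Rik and LOC102636380, named only in the study's tables, fell by 0.48 and 0.32, and 1 probeset without a gene name fell by 0.44 around the filter value.

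Activity-regulated genes were split. Of 36 measured, Nptx2, Nrn1 and Rasl11b rose at 0.01 and Vgf and Egr3 (0.36, FDR = 0.0479) at 0.05, none fell, and the median was −0.00 with 17 of 36 above 0. Beside this, 0.119% of all tested probesets rose at 0.01 and 1.03% of all named genes at 0.05. The list was written with earlier results of these data known, so its count adds no test. The immediate early genes Arc (−0.34, FDR = 0.583), Junb (−0.25, FDR = 0.458), Fosl2 (0.14, FDR = 0.482) and Fosb (0.11, FDR = 0.694) did not pass, nor did Homer1 (−0.18, FDR = 0.173), Bdnf (0.23, FDR = 0.0506) or the cold-inducible RNA-binding protein gene Cirbp (0.10, FDR = 0.667). In the list of 7 genes that the study used as controls for recovery sleep, Nptx2 and Hsp90b1 passed 0.01, Egr3 passed 0.05, and Bdnf, Fosl2, Hspa5 and Junb did not. That list was the study's own choice and its count is not independent evidence. No gene passed at either threshold among 20 glucocorticoid-responsive genes (median 0.04) or 18 genes of cholesterol synthesis and uptake (median −0.01).

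**Figure D3:**
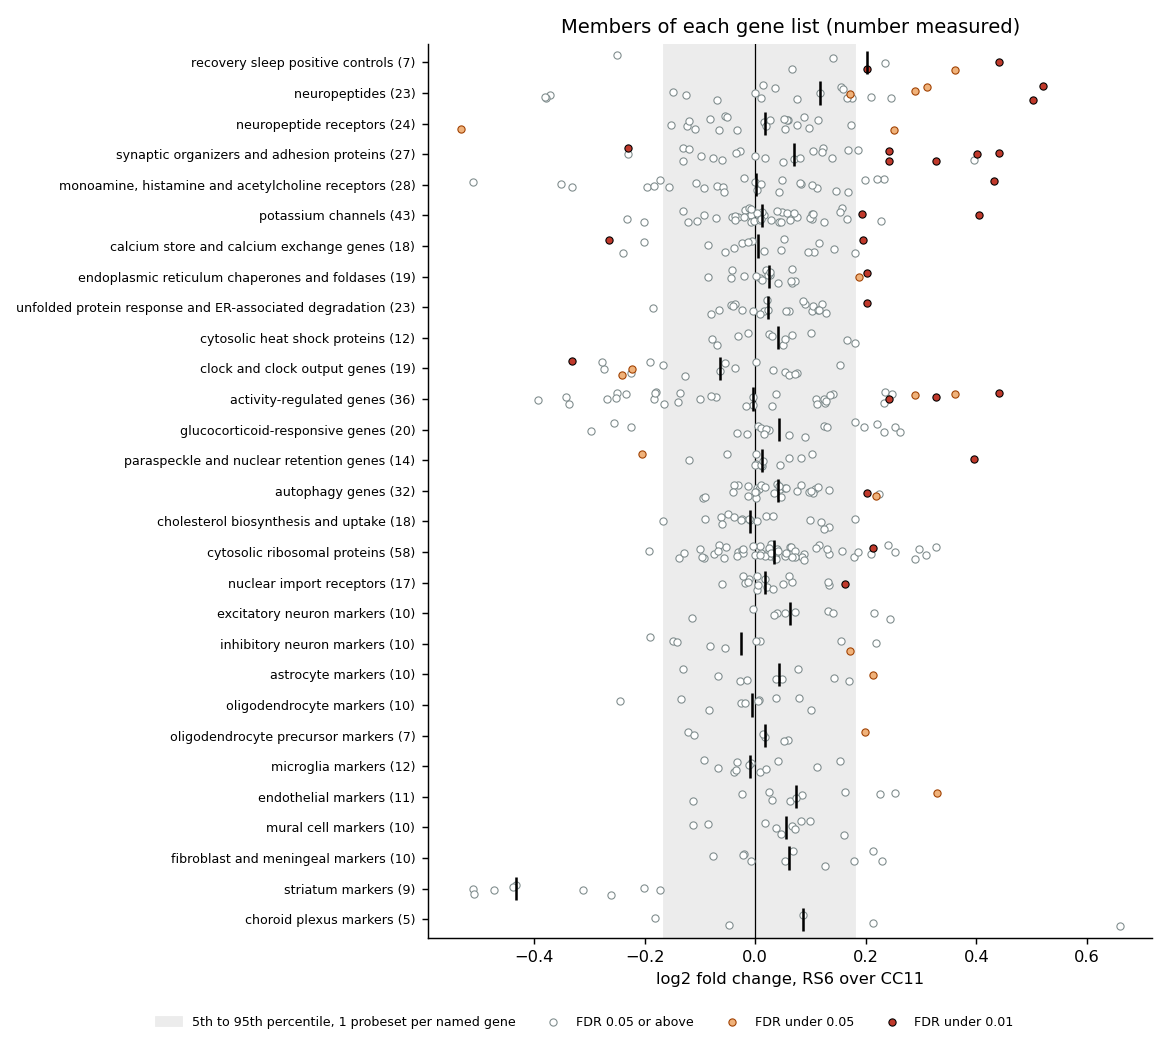
Log2 fold change of RS6 over CC11 (x axis) for the measured members of each gene list (rows, number in brackets), coloured by FDR, with list medians as bars and the grey band holding the 5th to 95th percentile of 1 probeset per named gene. The striatum list has the lowest median with none of its 9 members past 0.05, while 6 of 27 synaptic organizers and 5 of 23 neuropeptides are past it. Of all named genes 1.03% were higher and 0.434% lower at that threshold, and the lists were written with earlier results of these data known.

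Of 104 cell type marker genes, 4 were higher at an FDR under 0.05 (3.85%), against 1.03% of all named genes, and none was lower. The interneuron gene Vip (0.17), the astrocyte gene Fgfr3 (0.21), the oligodendrocyte lineage gene Olig1 (0.20) and the endothelial receptor Tek (0.33) rose, 1 gene in each of 4 lists. Without RUV factors Tek had 0.12 (FDR = 0.892) and Olig1 had 0.32 (FDR = 0.219). The medians ran from −0.03 for inhibitory neurons to 0.07 for endothelial cells, except for the striatum list and the choroid plexus list (0.09, with a mean level per mouse of 5.30 to 6.58 in RS6 and 5.15 to 5.94 in CC11). The part of these shifts in the calls above was not tested except through the striatum covariate.

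The 49 were set beside the earlier stages by whether they were called there too, and a missing call does not show that nothing had changed. SD and RS6 were compared with controls of their own, without shared arrays, while RS2 and RS3 share CC8. At an FDR under 0.01, 11 of the 49 were called in SD, 8 in RS2 and 6 in RS3, and 36 in none of them. The shares of all tested probesets called at those stages are not given here. These counts therefore describe the 49 and are not read as many or few. Of the 11 called in SD, 8 had the same direction in both: Nptx2, Cbln4, Cbln2, Htra1, Hsp90b1, Htr2a, Crh and Kcnk1. For Nptx2 the log2 fold changes were 0.58 ± 0.08 in SD, 0.61 ± 0.09 in RS2, 0.50 ± 0.08 in RS3 and 0.44 ± 0.08 in RS6. For Cbln4 they were 0.73 ± 0.06, 0.61 ± 0.07, 0.39 ± 0.06 and 0.40 ± 0.06 in the same order. The RS6 effect minus the SD effect was −0.14 ± 0.11 for Nptx2 (FDR = 0.6) and −0.33 ± 0.09 for Cbln4 (FDR = 0.0221), so the smaller value in RS6 passed 0.05 only for Cbln4. Hsp90b1 lay between 0.20 and 0.26 and Htra1 between 0.25 and 0.29 at the 4 stages.

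Adcyap1 and Fem1c were called in recovery but not in SD. Adcyap1 had 0.20 ± 0.08 in SD (FDR = 0.148), 0.43 ± 0.08 in RS2 (FDR = 0.00353), 0.28 ± 0.07 in RS3 (FDR = 0.044) and 0.52 ± 0.07 in RS6. Its RS6 effect exceeded its SD effect by 0.32 ± 0.10 without passing (FDR = 0.0725). Fem1c had −0.13 ± 0.05 in SD, 0.39 ± 0.06 in RS2, 0.25 ± 0.05 in RS3 and 0.27 ± 0.05 in RS6, and its RS6 effect exceeded the SD effect by 0.40 ± 0.07 (FDR = 0.000398).

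**Figure D4:**
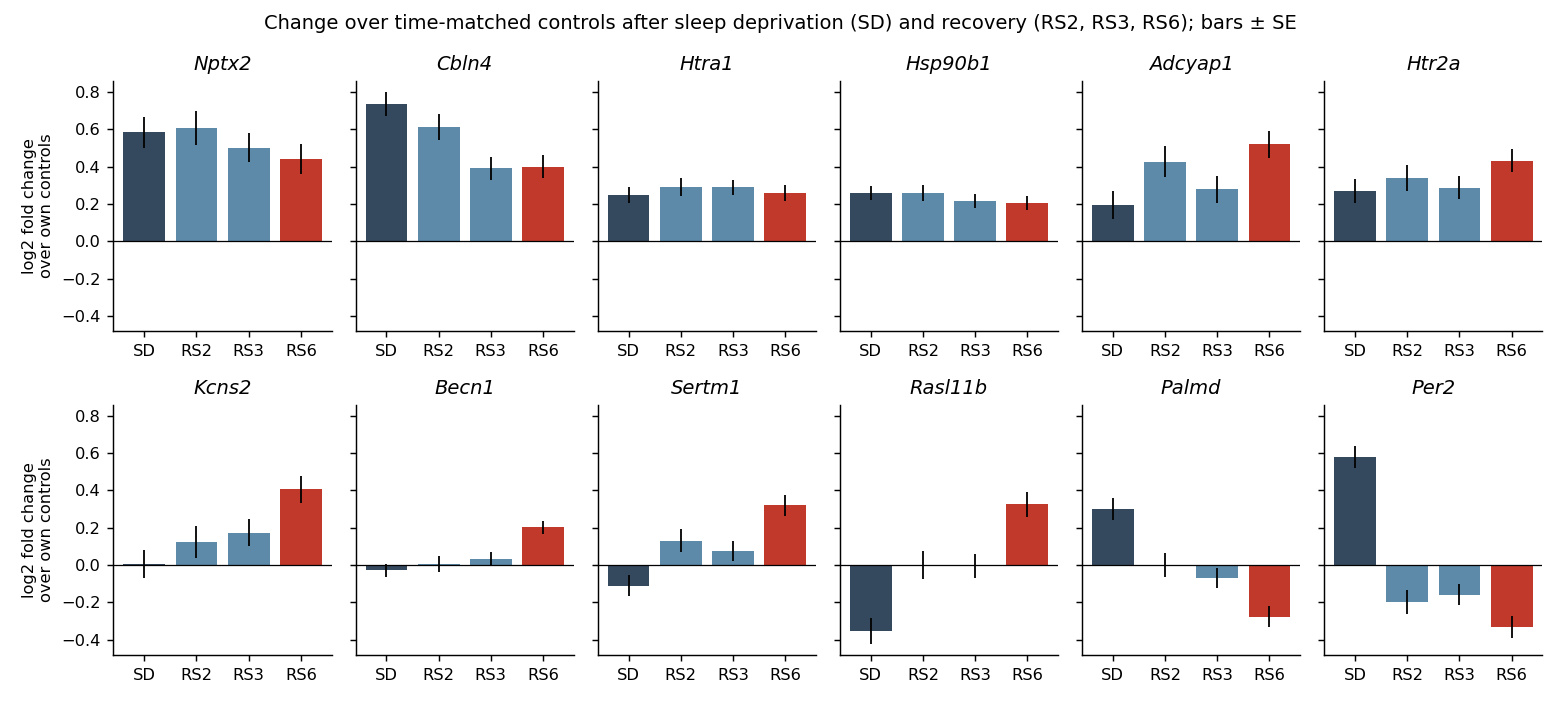
Log2 fold change over time-matched controls (y axis, bars ± SE) for 12 of the called genes in SD, RS2, RS3 and RS6. Nptx2, Htra1 and Hsp90b1 are above 0 at every stage, Kcns2, Becn1 and Sertm1 are clearly above 0 in RS6, and Rasl11b, Palmd and Per2 change sign between SD and RS6.

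Per2, Palmd and Rasl11b were called in both RS6 and SD with opposite signs. Per2 had a fold change of −0.33 ± 0.06 in RS6 and 0.58 ± 0.06 in SD, a difference of −0.91 ± 0.08 (FDR = 1.43e-10). Palmd had −0.28 ± 0.06 in RS6 and 0.30 ± 0.06 in SD (difference −0.58 ± 0.08, FDR = 6.49e-06). Rasl11b had 0.33 ± 0.07 in RS6 and −0.35 ± 0.07 in SD (difference 0.68 ± 0.09, FDR = 6.89e-06), and both RS2 and RS3 lay at −0.00. Bhlhe40, past 0.05 in RS6, likewise had −0.24 ± 0.06 in RS6 and 0.51 ± 0.06 in SD (difference −0.75 ± 0.09, FDR = 2.57e-07). Per2 and Bhlhe40 also had lower means in RS2 and RS3 than in CC8. The RMA means of Per2 were 7.53 in RS2 and 7.58 in RS3, against 7.74 in CC8. Those of Bhlhe40 were 9.82 and 9.61, against 10.04, and those of Palmd were 8.58 and 8.51, against 8.55.

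The RS6 effect differed from the SD effect at an FDR under 0.01 in 338 probesets (1.03% of those tested), among them 15 of the 49. Since the 49 were picked for their RS6 effect, that share is not read against the background. Of the 36 that were called at no other stage, 11 differed from SD in this test: Sertm1, Nwd2, Becn1, Rps3, Zfand2b, Emc7, Slitrk2, A630066F11Rik, Fbn1 and 2 probesets without a gene name. Becn1 had −0.03 ± 0.04 in SD, 0.01 ± 0.04 in RS2, 0.03 ± 0.04 in RS3 and 0.20 ± 0.04 in RS6, and the RS6 effect exceeded the SD effect by 0.23 ± 0.05 (FDR = 0.0047). Sertm1 had 0.32 ± 0.05 in RS6 and −0.11 ± 0.06 in SD (difference 0.43 ± 0.08, FDR = 0.000404). The RMA mean of Becn1 was 8.92 in RS6, and in undisturbed mice 8.93 in CC6, 8.85 in CC8 and 8.76 in CC11. That of Rps3 was 9.80 in RS6, beside 9.80, 9.76 and 9.53 in these controls. For both, the RS6 mean was close to that of CC6, and CC11 was the lowest of these controls. Sertm1 lay at 7.34 in RS6, above its 7.12, 7.12 and 7.04 in the same controls. For the rest of the 36, absence of a call before RS6 does not show that the stages differ. Kcns2, at 0.41 ± 0.07 in RS6 and 0.01 ± 0.08 in SD, passed only 0.05 (difference 0.40 ± 0.10, FDR = 0.0213). Deprivation lasted 5 h in RS6 and 6 h in SD, and its length and the recovery cannot be told apart here.

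RS3 mice had the same 5 h of deprivation as RS6 mice. The RS6 effect differed from the RS3 effect in only 1 probeset (0.00305%), Gm26910, which had a fold change of −0.04 in RS6 and 0.34 in RS3 (difference −0.37 ± 0.06, FDR = 0.00726) and was not among the 49. Of the 49, 5 passed an FDR of 0.05 in this test, namely Lhfp (0.36 ± 0.08, FDR = 0.0379), A630066F11Rik (0.40 ± 0.09, FDR = 0.046), Gm6745 (−0.43 ± 0.08, FDR = 0.0197), G630016G05Rik (−0.63 ± 0.13, FDR = 0.029) and 1 probeset without a gene name. For Adcyap1 the difference was 0.24 ± 0.10 (FDR = 0.343) and for Crh 0.25 ± 0.13 (FDR = 0.483). Homer1 was the reverse case among the genes followed, with −0.18 ± 0.07 in RS6 (FDR = 0.173) and 0.25 ± 0.06 in RS3 (FDR = 0.0436), a difference of −0.44 ± 0.09 (FDR = 0.0379).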

How the data were processed

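Left cortex RNA of each mouse was measured on 1 Affymetrix Mouse Gene 2.1 ST array. The deposited log2 values were made from the probe intensities by the authors with RMA (background correction, quantile normalization, median polish). Whether unwanted variation was removed before deposit is not given in the sources used here. Probesets over a log2 value of 4 in more than 50% of the 59 arrays with a group were kept (32819 of 41345). Of these, 19494 had 1 symbol in the platform annotation, 1445 had several and 11880 had none, and 53 were named from the study's tables alone.

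RUVs was computed with 6 factors, all kept probesets as controls and the 9 groups as replicate sets. The factors and the groups entered limma 3.58.1 (R 4.3.3), with empirical Bayes moderation and Benjamini-Hochberg adjustment over all kept probesets, and FDR under 0.01 as the main threshold. One array, whose labels name differing recovery times, was not assigned to a group and entered no fit. The factors were taken from differences between mice of the same group. The p-values measure the spread between mice that remains after these 6 factors, estimated over all 9 groups. The fit was also run on data simulated from this same model and its factors, which cannot test whether the factors suit these arrays. Every probeset past 0.01 with 1 symbol was named, the 15 largest increases and 10 largest decreases with the values of their mice, together with list members past 0.05, the 7 recovery controls and 7 further genes. Members and lists were chosen with earlier results of these data known. Levels of a list are the mean RMA value of its measured members per mouse. No blood marker was measured. Alternatives changed the RUV factors, filter, normalization, weights, variance trend, blocking, arrays and threshold. Promoters came from RefSeq (GRCm38.p6), and 46 of 70 named genes had one.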

Additional observations from a re-analysis of the deposited data

Results flagged for a closer look

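Values far from the rest of their group were sought for each named probeset in RS6 and in CC11, as the gap to the nearest mouse divided by the range of the group. Of 162 such groups 28 held an outlying value, where chance gives about 5%, and 22 of the 28 were RS6 replicate 1. That mouse was low for Lhfp (0.7057 of the range, at 7.49), Neat1 (0.6165 for probeset 17361805 and 0.6883 for probeset 17550426), Gcnt4 (0.6041), Tmem230 (0.6282), Crhbp (0.7199) and Sfpq (0.7027). It was high for Rps3 (0.7917, at 10.16), Pgam1 (0.7737), Fgfr3 (0.7645), Vgf (0.6839), Junb (0.6768), Htra1 (0.6767), Tef (0.6681), Snu13 (0.6522), Calr (0.6417), Olig1 (0.6119), Syt13 (0.5939), Gabarapl2 (0.5929), Per1 (0.5697), the second Saraf probeset (0.572) and the unnamed probeset 17478598 (0.6357). For Lhfp, Neat1, Gcnt4 and Tmem230, which were higher in RS6, it lay opposite to the group's change, and for Rps3, Pgam1, Htra1, Snu13 and Syt13 it lay further along it. RS6 replicate 2 was low for the unnamed probeset 17283940 (0.6833). Among the controls, CC11 replicate 7 was low for Neat1 (0.5736) and for the second Snu13 probeset (0.5704) and high for Npas2 (0.6082), CC11 replicate 4 was low for Per2 (0.6364), and CC11 replicate 3 was low for Slc24a4 (0.5692).

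The RS6 effect differed from the SD effect in 15 of the 49 probesets by limma's test of the difference (FDR under 0.01). It was higher by 0.6798 log2 units for Rasl11b, by 0.4655 for Fbn1, 0.4647 for A630066F11Rik, 0.4559 for Nwd2, 0.431 for Sertm1, 0.3953 for Fem1c, 0.3144 for Zfand2b, 0.3106 for Slitrk2, 0.264 for Rps3, 0.2566 for Emc7, 0.2315 for Becn1 and 0.6447 for the unnamed probeset 17478598. The difference was −0.9133 for Per2, −0.5777 for Palmd and −0.7469 for the unnamed probeset 17418557. These probesets were picked for their RS6 effect, which enters the difference, and deprivation lasted 5 h in RS6 and 6 h in SD.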

How the results depend on the processing

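Against the 49 probesets that passed an FDR of 0.01 (39 higher, 10 lower in RS6), 15 passed with 3 RUV factors (13 higher, 2 lower), 293 with the factors subtracted from the values first (201 higher, 92 lower), 20 with array weights (18 higher, 2 lower), 16 with the striatum covariate (14 higher, 2 lower) and 333 at an FDR under 0.05 (222 higher, 111 lower). Subtraction leaves the factors out of the residual degrees of freedom by construction. No probeset passed, higher or lower, without RUV, or with the 14 arrays alone with 0 or 2 RUV factors, where 3477, 4036 and 4195 had an unadjusted p under 0.05. The same count of 0 held for 2 settings chosen after seeing the data, no RUV with the striatum covariate and no RUV without RS6 replicate 1. The cause of these differences was not tested. The 9-factor fit (42), no filter (33), the filter at 6 (61), a second quantile normalization (50), a variance trend (71) and leaving out the 5 arrays that stand apart (50) complete the settings. Leaving out 1 mouse at a time gave 12 to 105 probesets (10 to 78 higher, 1 to 27 lower). The lower counts came without RS6 replicates 2 (15), 3 (12) and 7 (22) and CC11 replicates 1 (31), 6 (25) and 7 (19), and the highest without CC11 replicate 3 (105). All 49 kept their direction under every setting in which they were tested, but they were picked on these arrays, so this adds no test.

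The labels number the mice of each group without saying that a number marks a shared day. Deviations of RS6 and CC11 mice of the same number correlated at −0.12 to 0.09, none of the 7 pairs was over 0.1, and 1 of 7 RS6 mice correlated best with its own number. With the replicate number as a block, 79 probesets passed (59 higher, 20 lower), 41 of them among the 49, with 9 for the RS6 effect minus the RS3 effect.

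The RS6 effect minus the RS3 effect had 1 probeset, against 0 without RUV, with 3 factors or without the 5 arrays, 7 with 9 factors and 35 with subtraction. The RS6 effect minus the SD effect had 338, against 41 without RUV, 212 with 3 factors and 667 with subtraction. Of the listed genes 21 passed, against 0 without RUV and 35 at an FDR under 0.05. Signs turned only for probesets that passed under no setting. Junb (−0.25) had 0.0218 without RUV with the striatum covariate. The second Saraf probeset (−0.03) had 0.0675 without RUV, in 59 or 14 arrays, 0.0742 with the covariate as well, 0.00211 with 9 factors, and between −0.137 and 0.0382 when 1 mouse was left out. The second Emc7 probeset (−0.02) had 0.0383 with 9 factors, 0.0222 with the block, 0.0147 without the 5 arrays, and between −0.0882 and 0.0966 when 1 mouse was left out.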

Other observations

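The largest fold changes past an FDR of 0.05 belonged mostly to probesets without a gene name. Probeset 17206865 lay at 4.60, 5.52 and 5.82 (lowest, median and highest) in RS6 mice and at 6.34, 6.84 and 7.40 in CC11 mice, fully apart, with a fold change of −1.42 ± 0.38 (FDR = 0.0487). Among named genes of that group, Gpr101, an orphan receptor, had values of 5.11, 5.41 and 6.11 in RS6 mice and 5.72, 5.99 and 6.21 in CC11 mice (−0.51 ± 0.12, FDR = 0.0197). Ano2, a calcium-activated chloride channel, lay at 5.91, 6.19 and 7.30 in RS6 mice against 6.49, 7.16 and 7.19 in CC11 mice, with wide overlap (−0.58 ± 0.15, FDR = 0.0441). They were picked out with their values in view.

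Of 363 microRNA precursor probesets 1 was higher and 4 were lower in RS6 at an FDR under 0.05, with a median fold change of −0.02. Mir135b had 0.43 ± 0.10 (FDR = 0.0244), Mir1912 −0.42 ± 0.11 (FDR = 0.0368), Mir300 −0.34 ± 0.08 (FDR = 0.0359), Mir1193 −0.33 ± 0.08 (FDR = 0.0376) and Mir667 −0.33 ± 0.07 (FDR = 0.0188). The symbols are those of precursors, so mature arms are not told apart. None of 76 small nucleolar RNA probesets passed that threshold by limma. The array that the labels place in no single group had values of 7.80 for Adcyap1, 6.88 for Crh, 8.02 for Nptx2, 9.73 for Htr2a, 7.79 for Neat1 (probeset 17361805) and 7.66 for Per2. That array entered no fit, and its values stand for neither RS6 nor CC11.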
